A study of Oryctolagus cuniculus with 30 samples.

Results

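Potassium channel genes were taken as the genes whose symbol begins with KCN, and 92 of the 31346 genes in the count table met that rule. Of these, 56 reached a mean of at least 0.5 CPM (read counts scaled to the library total after TMM normalization; 54 genes without that normalization) in at least 1 group and are described here, while 36 did not. The mucosa came from the vocal folds of New Zealand white rabbits, 15 animals in 5 groups of 3, with the 2 folds of every animal sequenced as separate libraries (30 in all). In the Col1, VFLP (man) and VFLP (au) groups the mucosa of both folds was stripped superficially, 20 µL of collagen type I or of one of the 2 VFLP materials was injected into each side 7 days later, and tissue was taken 28 days after treatment. The series title describes the VFLP materials as hydrogels made from vocal fold lamina propria. The injury-only group was stripped in the same way and received no injection, so that a material and the act of injecting it cannot be told apart. Its tissue is also labelled 28 days after treatment, and the day from which this is counted is not stated. Time since stripping may therefore differ between the injury-only and injected groups, and cannot be told apart from the materials. The control group was neither stripped nor injected. Age and sex of the animals are not stated in the labels. The 92 genes comprised 15 inward rectifiers (10 described), 29 pore subunits of voltage-gated channels (17 described), 17 silent, beta or interacting subunits of voltage-gated channels (8 described), 6 calcium- or sodium-activated channels (4 described), 15 tandem-pore-domain channels (9 described) and 10 other accessory genes (8 described). The described gene nearest the 0.5 CPM limit was KCNJ3, whose highest group mean was 0.508 CPM, and the nearest below it was KCNAB3 at 0.456 CPM.

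Potassium channels let potassium leave the cell or hold the membrane near the potassium equilibrium, and so set the resting potential and end the action potential. Skeletal muscle fibres rely on inward rectifiers and on voltage-gated and calcium-activated channels for repolarization, and smooth muscle relies on the large-conductance calcium-activated channel. In secretory epithelia, potassium channels keep up the electrical force for chloride secretion, and in the airway a pore subunit encoded by KCNQ1 works with the small subunit encoded by KCNE3. Vocal fold mucosa is a stratified squamous epithelium over a lamina propria, next to the glands and ciliated epithelium of the larynx and to the thyroarytenoid muscle.

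Libraries held 14.2 to 31.9 M reads on genes, and KCN genes took 0.0436 to 0.0529% of these reads in injury-only animals, against 0.0698 to 0.0904% in control animals. All 6 control libraries and 5 injury-only libraries are labelled batch C, and the other injury-only library and the 18 libraries of injected animals are labelled batch D. Skeletal muscle RNA was present in every group and differed widely between groups. The 24 muscle genes found, of 30 listed and none of them at 0, summed to 2760 to 8412 CPM in Col1 animals, 630 to 4170 CPM in VFLP (man) animals, 5714 to 13489 CPM in VFLP (au) animals, 9029 to 21595 CPM in injury-only animals and 49468 to 110991 CPM in control animals. The 10 secretory and gland genes found, of 12 listed, summed to 14879 to 25837 CPM in injury-only animals and 416 to 5514 CPM in control animals, with 1 of them, BPIFB2, at 0 in all control animals. The 12 ciliated cell genes summed to 189 to 875 CPM in injury-only animals and 7.83 to 118 CPM in control animals. The 11 squamous genes found, of 12 listed, summed to 17777 to 20465 CPM in injury-only animals and 11703 to 23212 CPM in control animals, so the labelled epithelium was represented in both. In such bulk samples, fewer cells of a type and less RNA per cell cannot be told apart.

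**Figure D1:**
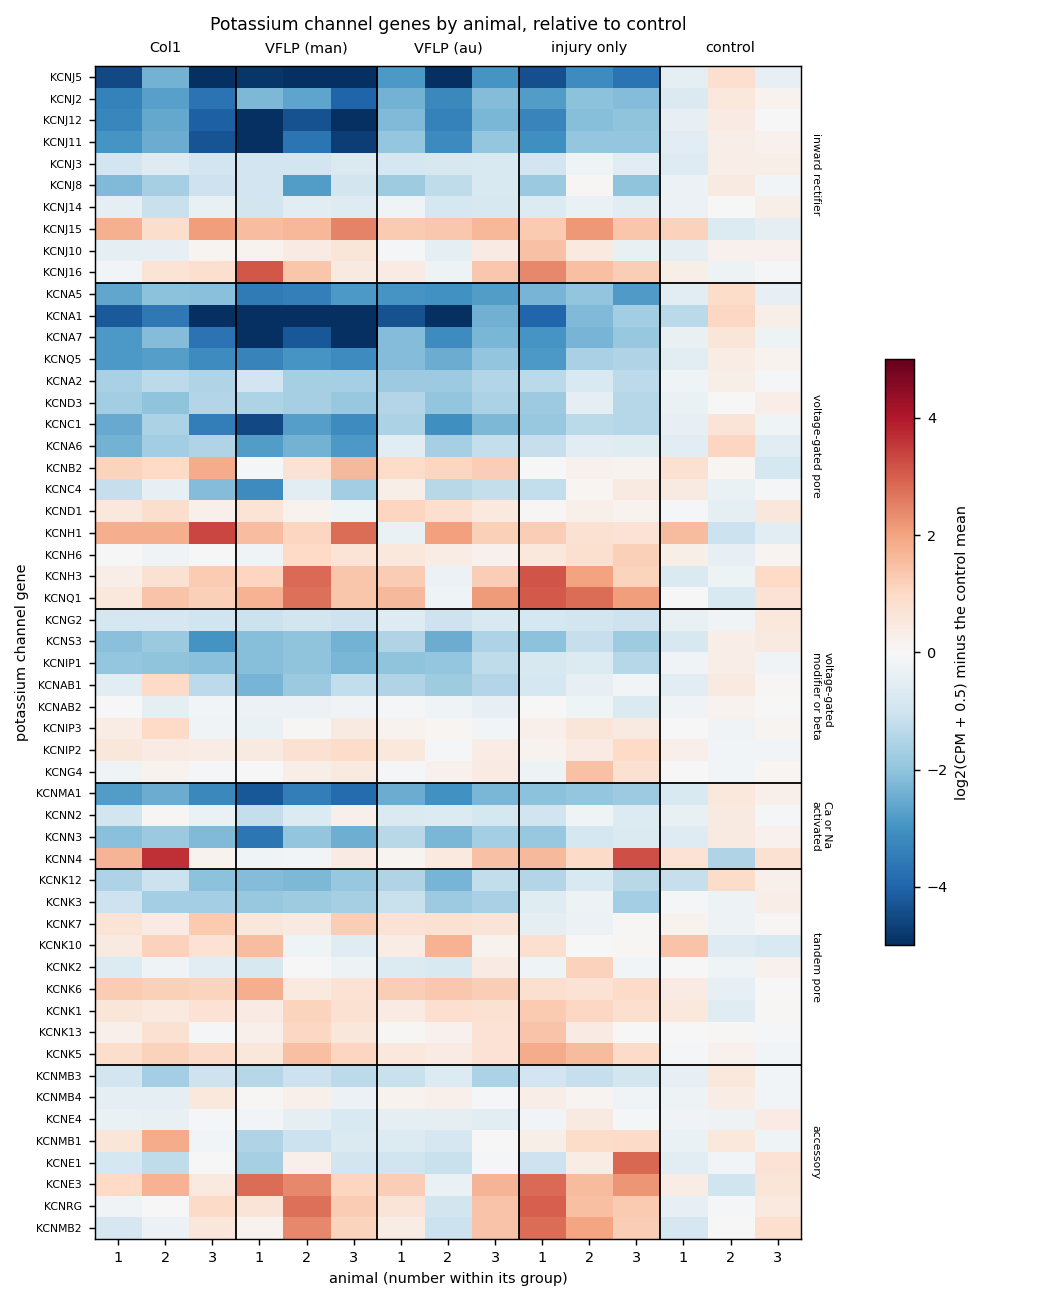
Level of 54 of the 56 described potassium channel genes in each of 15 animals, as log2(CPM + 0.5) minus the mean of the 3 control animals. Rows are grouped by channel class and ordered by the injury-only change, and columns are animals; colours saturate at 5 in either direction. Blue rows at the top of the inward rectifier and voltage-gated blocks are lower in most injured animals, and red rows at the ends of the blocks are higher in injury-only animals.

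After stripping without injection, lower potassium channel genes outnumbered higher ones among those past the threshold, as lower genes did among all genes tested. KCNQ5 and KCNMA1 had the smallest adjusted p of the lower genes and KCNK5 that of the higher genes. Of the 92 KCN genes, 67 passed the filter on low counts and were tested, all 56 described genes among them. In injury-only against control animals, 18 of the 67 (26.9%) passed an adjusted p of 0.05, 5 higher and 13 lower. Among all 17815 genes tested the share was 22.1%, with 8.33% higher and 13.7% lower. In this fit 1 injury-only animal, whose folds lie in different batches, entered as 2 units, and with each animal as 1 unit and no batch term 19 passed, these 18 among them. Of the 56 described, 17 passed. The 4 higher genes were KCNK5, KCNQ1, KCNK1 and KCNE3. The 13 lower genes included KCNJ2, KCNJ5, KCNJ11, KCNJ12, KCNA1, KCNA5, KCNA7, KCNQ5, KCNG2, KCNS3, KCNMA1 and KCNMB3. The median log2 fold change was -0.40 over the 56 genes and 0.02 over all genes tested. The median over all 67 tested genes was -0.01, with 33 fitted higher and 34 fitted lower. Animals of the groups did not overlap for 21 lower and 16 higher KCN genes, against 21.5% and 20.8% of all genes. In the same comparison 13 of the 24 muscle genes, 4 of 10 smooth muscle and pericyte genes, 6 of 12 fibroblast genes, 3 of 12 endothelial genes and 3 of 11 nerve genes were lower, and none of these lists held a higher gene. Of the other lists, 4 of 10 secretory, 3 of 12 ciliated, 4 of 9 T and NK cell and 4 of 11 B and plasma cell genes were higher, macrophage genes gave 1 higher and 1 lower of 8, and no squamous gene of 11 passed. A fit with the muscle level is given below; the part of the other markers in the potassium channel changes was not tested.

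**Figure D2:**
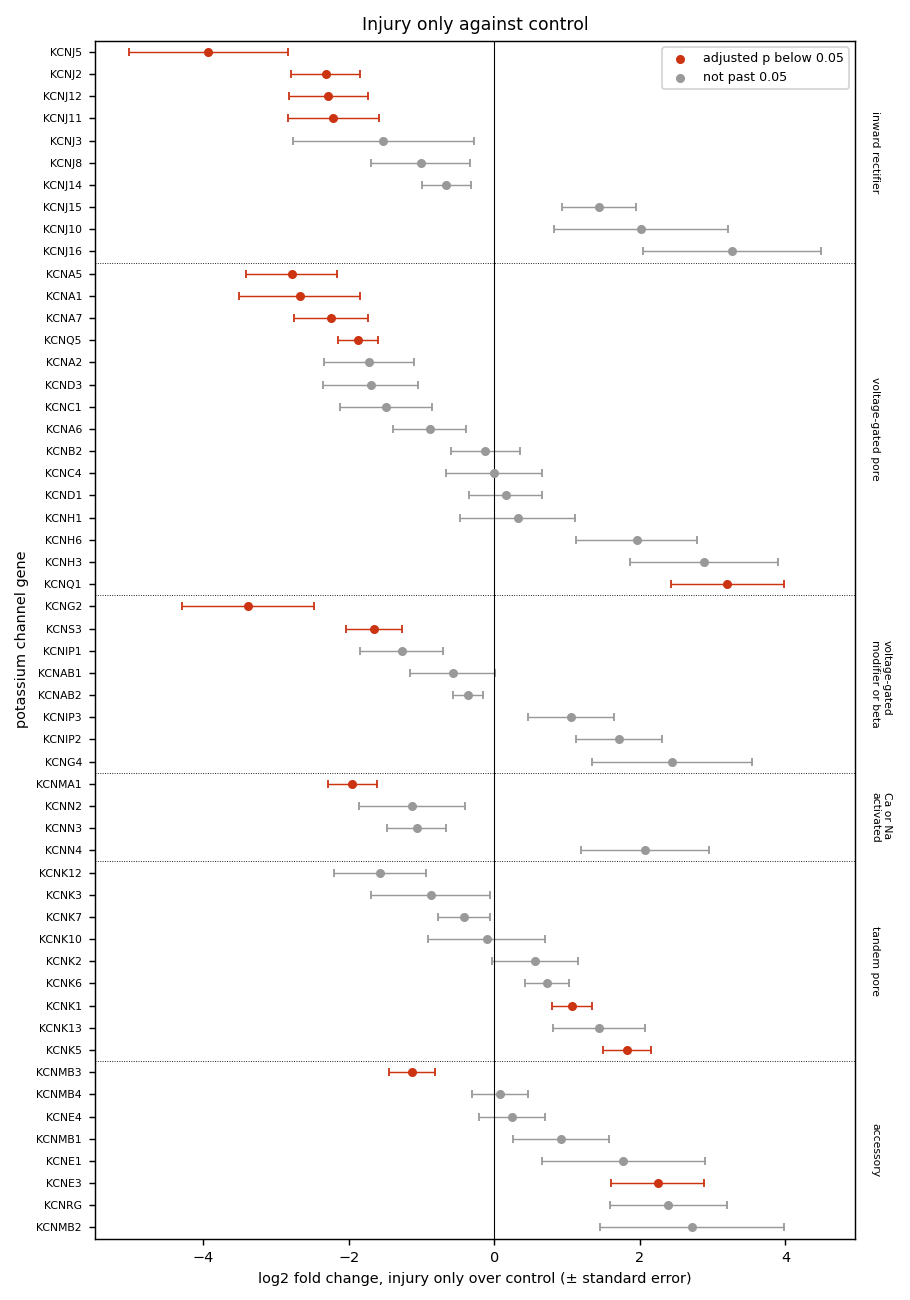
Log2 fold change of 54 of the 56 described genes, injury only over control, with its approximate standard error, by channel class. Red points passed an adjusted p of 0.05 (4 higher, 12 lower) and grey points did not; the lowest values are those of KCNJ5 and KCNG2 and the highest of KCNJ16 and KCNQ1.

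Inward rectifiers carry current near the resting potential. Of the 10 described, 4 fell in injury-only animals and none rose. KCNJ12, which encodes a strong inward rectifier of skeletal and heart muscle, had 15.2, 34.5 and 38.0 CPM in injury-only animals, against 114, 203 and 158 CPM in control animals. Every injury-only animal lay below every control animal, and the level was 4.86-fold lower (log2 fold change -2.28, SE 0.54, adjusted p = 0.0123). In humans KCNJ12 has a near-identical copy, so reads of such a copy could not be told apart. KCNJ2, the strong inward rectifier that stabilizes the resting potential of muscle, had 16.9, 28.3 and 26.3 CPM in injury-only animals, against 71.9, 173 and 135 CPM in control animals. It was lower without overlap (log2 fold change -2.32, SE 0.48, adjusted p = 0.00622). KCNJ11 encodes the pore of the ATP-sensitive channel of muscle. It had 2.84, 6.72 and 6.72 CPM in injury-only animals and 19.0, 33.6 and 31.8 CPM in control animals, 4.64-fold lower (log2 -2.21, SE 0.63, adjusted p = 0.0265). KCNJ5, a G-protein-gated rectifier best known from the heart, had 1.18, 3.61 and 2.26 CPM in injury-only animals and 26.1, 63.7 and 26.5 CPM in control animals. This was the steepest fall of the class, 15.3-fold (log2 -3.93, SE 1.09, adjusted p = 0.0241), and again the groups did not overlap.

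The other 6 inward rectifiers did not pass. KCNJ15, an epithelial rectifier, had 17.2, 31.5 and 18.0 CPM in injury-only animals and 15.1, 3.88 and 4.74 CPM in control animals (log2 1.44, adjusted p = 0.0588). KCNJ16, which pairs with KCNJ10 in epithelia, averaged 1.75 ± 1.04 CPM in injury-only animals and 0.150 ± 0.127 CPM in control animals (SD, n = 3 each here and in all such values; adjusted p = 0.0731). KCNJ10 averaged 0.702 ± 0.741 and 0.247 ± 0.178 CPM in injury-only and control animals. Of the 10 described inward rectifiers, these 3 had the fitted increases. KCNJ8, the ATP-sensitive pore of vascular smooth muscle, averaged 4.99 ± 4.79 CPM in injury-only animals and 10.3 ± 3.15 CPM in control animals. KCNJ14 averaged 2.00 ± 0.31 and 3.11 ± 0.71 CPM in injury-only and control animals. KCNJ3, the usual partner of KCNJ5, averaged 0.165 ± 0.165 CPM in injury-only animals and 0.508 ± 0.332 CPM in control animals, on 84 reads in all libraries.

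Among the 17 voltage-gated pore genes, 5 fell and 1 rose. KCNQ5, a slowly activating channel of skeletal and smooth muscle, gave the lowest adjusted p of all potassium channel genes. It had 11.6, 28.7 and 30.4 CPM in injury-only animals, against 61.1, 114 and 98.7 CPM in control animals, and was 3.66-fold lower without overlap (log2 -1.87, SE 0.28, adjusted p = 0.00193). KCNA7, a channel known from heart and skeletal muscle, had 10.6, 16.4 and 22.1 CPM in injury-only animals and 65.7, 128 and 71.7 CPM in control animals. The highest injury-only animal stood far below the lowest control animal, and the fall was 4.75-fold (log2 -2.25, SE 0.51, adjusted p = 0.0103). KCNA1, which limits firing in axons, had 3.90, 14.3 and 20.1 CPM in injury-only animals and 26.7, 140 and 84.5 CPM in control animals, 6.40-fold lower (log2 -2.68, SE 0.83, adjusted p = 0.0381). Values varied widely within both groups, and the call held in 1 of the 6 fits that left out an animal. KCNA5, a delayed rectifier of heart and vascular smooth muscle, had 0.887, 1.27 and 0.493 CPM in injury-only animals and 4.38, 12.7 and 4.80 CPM in control animals, 6.91-fold lower (log2 -2.79, SE 0.62, adjusted p = 0.00955).

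KCNQ1, the epithelial and heart channel that partners with KCNE subunits, was the voltage-gated gene that rose. It had 11.0, 8.96 and 5.31 CPM in injury-only animals, against 0.875, 0.312 and 1.77 CPM in control animals, without overlap and 9.20-fold higher (log2 3.20, SE 0.78, adjusted p = 0.0140). The other 11 voltage-gated pore genes did not pass. KCNA2, an axonal channel, averaged 0.422 ± 0.227 CPM in injury-only animals and 1.52 ± 0.39 CPM in control animals (adjusted p = 0.0642). KCND3, a transient outward channel of the heart, averaged 0.577 ± 0.530 and 1.92 ± 0.57 CPM in injury-only and control animals (adjusted p = 0.0808), with 37.8% of its reads on the opposite strand. KCNC1, a fast-spiking neuronal channel, averaged 7.69 ± 1.61 and 24.4 ± 10.2 CPM in injury-only and control animals (adjusted p = 0.109). These 3 had fitted values below control, as did KCNA6. KCNA6 averaged 4.19 ± 0.98 and 8.62 ± 6.32 CPM in injury-only and control animals. KCNH3 pointed upward, at 4.34 ± 3.30 CPM in injury-only animals and 0.598 ± 0.703 CPM in control animals (adjusted p = 0.0614). KCNH6 also pointed upward, at 0.708 ± 0.281 CPM in injury-only animals and 0.180 ± 0.162 CPM in control animals. A further 4, named next, had log2 fold changes between -0.13 and 0.32. KCNC4, a fast-inactivating channel, averaged 23.2 ± 12 and 25.1 ± 7.3 CPM in injury-only and control animals. KCNB2 averaged 6.43 ± 0.59 and 6.58 ± 3.74 CPM, and KCND1 averaged 0.698 ± 0.084 and 0.625 ± 0.419 CPM, in injury-only and control animals. KCNH1 averaged 9.48 ± 1.99 CPM in injury-only animals and 6.91 ± 7.48 CPM in control animals, where 1 animal at 15.5 CPM stood above all 3 injury-only animals.

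Silent, beta and interacting subunits form no channel alone and alter the channels they join. KCNS3, a silent subunit, had 14.9, 27.6 and 18.1 CPM in injury-only animals and 36.2, 80.1 and 85.4 CPM in control animals. The groups did not overlap and the fall was 3.14-fold (log2 -1.65, SE 0.38, adjusted p = 0.0112). KCNG2, another silent subunit, had 0.0788, 0.0707 and 0.0235 CPM in injury-only animals and 0.333, 0.446 and 1.03 CPM in control animals, 10.5-fold lower (log2 -3.39, SE 0.91, adjusted p = 0.0213). That value rests on 8 reads in injury-only and 62 reads in control animals, 78.8% of the reads at the gene lay on the opposite strand, and the call was lost with counts that ignore strand (adjusted p = 0.0862). The other 6 did not pass in this comparison. KCNIP1, a calcium-binding partner of transient outward channels, had 0.985, 1.11 and 0.446 CPM in injury-only animals and 1.77, 2.76 and 1.80 CPM in control animals (log2 -1.27, SE 0.57, adjusted p = 0.126). KCNAB1 averaged 3.56 ± 1.00 and 5.22 ± 1.90 CPM, and KCNAB2 averaged 8.50 ± 2.22 and 10.5 ± 1.3 CPM, in injury-only and control animals. Both are beta subunits of the KCNA family. KCNIP2 averaged 0.456 ± 0.304 and 0.149 ± 0.106 CPM (adjusted p = 0.0556), KCNIP3 averaged 0.613 ± 0.141 and 0.319 ± 0.0895 CPM, and KCNG4 averaged 0.550 ± 0.567 and 0.0972 ± 0.0495 CPM, in injury-only and control animals.

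KCNMA1 encodes the large-conductance channel that opens with calcium and voltage and relaxes smooth muscle. It had 16.3, 17.5 and 18.9 CPM in injury-only animals, against 40.4, 98.1 and 81.3 CPM in control animals. Injury-only animals lay close together and all below control, 3.87-fold lower (log2 -1.95, SE 0.34, adjusted p = 0.00312). The small-conductance genes KCNN3 and KCNN2 did not pass. KCNN3 averaged 24.1 ± 9.4 and 54.3 ± 19.8 CPM (adjusted p = 0.0759), and KCNN2 averaged 0.486 ± 0.267 and 1.03 ± 0.44 CPM, in injury-only and control animals. KCNN4, the intermediate-conductance channel of epithelium and lymphocytes, had 17.1, 10.7 and 53.4 CPM in injury-only animals and 8.98, 1.51 and 9.20 CPM in control animals. The animals did not overlap, but the gene did not pass (log2 2.07, adjusted p = 0.111). In injury-only animal 3 the left fold had 121 CPM and the right fold 2.10 CPM. Single libraries did overlap, at 2.10 to 121 CPM in injury-only and 0.458 to 15.0 CPM in control libraries.

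Tandem-pore-domain channels conduct a background current. KCNK5, an alkali-sensitive channel of epithelia, had 6.84, 5.57 and 3.45 CPM in injury-only animals, against 1.44, 1.87 and 1.37 CPM in control animals. It was 3.53-fold higher without overlap (log2 1.82, SE 0.33, adjusted p = 0.00373). KCNK1, a weakly rectifying background channel, had 39.3, 32.5 and 27.8 CPM in injury-only animals and 22.9, 10.2 and 16.4 CPM in control animals, 2.09-fold higher (log2 1.07, SE 0.27, adjusted p = 0.0175). Again no animal of one group reached the other. KCNK6 had 29.2, 27.2 and 31.9 CPM in injury-only animals and 21.7, 12.2 and 16.6 CPM in control animals (log2 0.72, SE 0.30, adjusted p = 0.0996). The groups did not overlap for KCNK6, but it did not pass. KCNK12 averaged 1.28 ± 0.51 and 4.19 ± 2.85 CPM (adjusted p = 0.0928), and KCNK3, an acid-sensitive channel, averaged 0.702 ± 0.539 and 1.53 ± 0.45 CPM, in injury-only and control animals. The mechanosensitive KCNK2 averaged 1.71 ± 1.30 and 1.16 ± 0.23 CPM, and its relative KCNK10 averaged 2.52 ± 1.00 and 2.60 ± 2.82 CPM, in injury-only and control animals. KCNK13 averaged 1.01 ± 0.81 and 0.402 ± 0.053 CPM, and KCNK7 averaged 3.11 ± 0.65 and 3.69 ± 0.61 CPM, in injury-only and control animals.

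Among accessory genes, KCNE3, the small subunit that holds KCNQ1 open in secretory epithelium, had 47.9, 19.7 and 30.8 CPM in injury-only animals, against 8.38, 2.94 and 9.77 CPM in control animals. It was 4.74-fold higher without overlap (log2 2.24, SE 0.64, adjusted p = 0.0272), so KCNQ1 and KCNE3 both passed upward. KCNMB3, a beta subunit of the KCNMA1 channel, had 5.97, 5.16 and 6.20 CPM in injury-only animals and 9.13, 17.5 and 11.1 CPM in control animals, 2.20-fold lower (log2 -1.14, SE 0.32, adjusted p = 0.0249). The other beta subunits of that channel did not pass. KCNMB1, the smooth muscle beta subunit, averaged 2.44 ± 0.71 and 1.30 ± 0.61 CPM in injury-only and control animals. KCNMB2 averaged 4.44 ± 2.63 and 0.754 ± 0.704 CPM, and KCNMB4 averaged 2.01 ± 0.45 and 1.87 ± 0.58 CPM, in injury-only and control animals. KCNRG, which holds back assembly of voltage-gated channels, had 19.1, 6.53 and 5.66 CPM in injury-only animals and 1.33, 1.83 and 3.00 CPM in control animals, just outside the threshold (log2 2.39, adjusted p = 0.0515). KCNE1 averaged 5.21 ± 6.98 and 1.54 ± 0.99 CPM, with 13.2 CPM in 1 injury-only animal, and KCNE4 averaged 0.712 ± 0.284 and 0.649 ± 0.306 CPM, in injury-only and control animals. The injury-only animal at 13.2 CPM of KCNE1 had 30.5 CPM in its left fold and 0.129 CPM in its right fold.

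**Figure D3:**
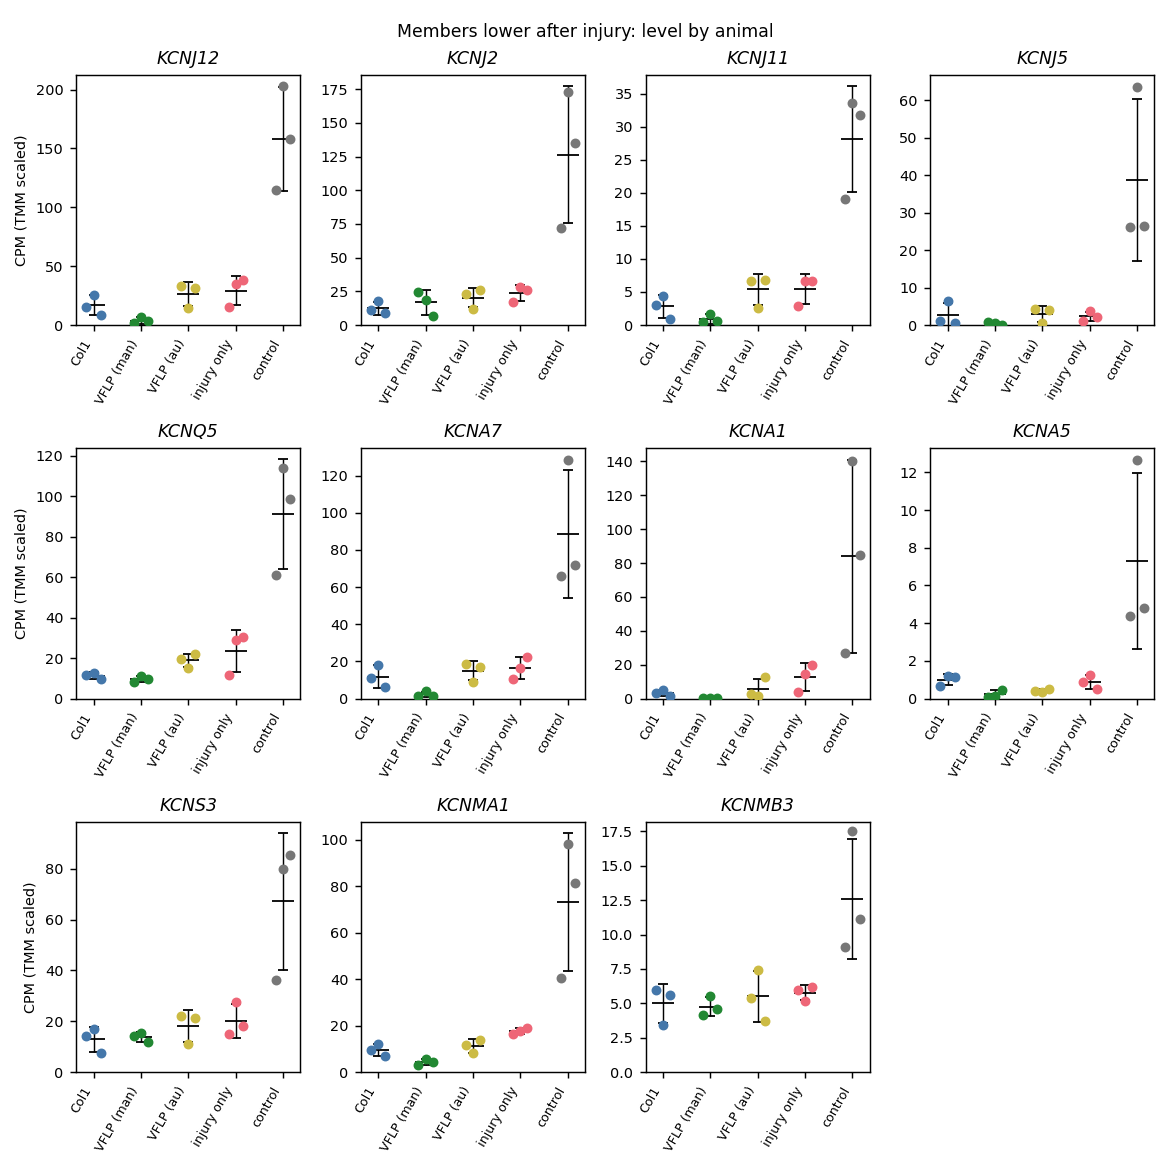
CPM of the 11 genes KCNJ12, KCNJ2, KCNJ11, KCNJ5, KCNQ5, KCNA7, KCNA1, KCNA5, KCNS3, KCNMA1 and KCNMB3, all lower in injury-only than in control animals. Points are animals, black lines the mean and SD of 3 animals (bars are cut at 0), and the 3 control animals stand above the 12 injured animals in every panel.

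Entering the muscle level in the fit ended most of these calls, while the fold changes moved by unequal amounts. Muscle level here is the mean log2 CPM of the 24 muscle genes, which was 6.93 to 8.50 in injury-only animals and 9.39 to 10.68 in control animals, so the covariate itself separates the groups. With it as a covariate, 3 of 67 KCN genes passed. The share of all genes that passed in this fit, or in the other alternative fits below, is not given here. The drop is therefore not read as particular to KCN genes. KCNQ5 was lower (log2 -1.20, adjusted p = 0.0455), KCNK5 was higher (log2 2.35, adjusted p = 0.0367), and KCNMB1, which had not passed before, was higher (log2 2.94, adjusted p = 0.0415). KCNA1 moved to a log2 fold change of -0.14, KCNJ11 to -0.42, KCNJ12 to -0.58, KCNA7 to -0.87 and KCNMA1 to -0.97. KCNJ2 moved from -2.32 to -1.90 and KCNQ1 from 3.20 to 3.83, with adjusted p of 0.0999 and 0.0578 in the covariate fit. Others did not pass either, with log2 fold changes of 2.27 for KCNE3, 0.99 for KCNK1, -1.09 for KCNMB3, -2.02 for KCNA5, -2.71 for KCNJ5, -1.87 for KCNG2 and -1.02 for KCNS3 (adjusted p = 0.129, 0.138, 0.170, 0.200, 0.248, 0.416 and 0.219). Only KCNQ5 and KCNK5, of the 17 described genes that passed, did so in all 13 other fits tried. The count of 18 fell to 10 without control animal 2 and to 11 without injury-only animal 1. Across the 6 fits that left out an animal, KCNJ11 passed in 1, KCNG2, KCNJ5 and KCNMB3 in 2 each, and KCNE3 and KCNK1 in 4 each.

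The single libraries spread more widely than the animals. KCNQ5 ranged from 6.74 to 43.7 CPM over 6 injury-only libraries and from 26.2 to 148 CPM over 6 control libraries. The lowest control library was the left fold of control animal 1, whose muscle genes summed to 14852 CPM, against 42035 to 141072 CPM in the other 5 control libraries. KCNK5 ranged from 1.50 to 7.75 CPM over the injury-only libraries and from 0.802 to 2.47 CPM over the control libraries. Its lowest injury-only library was the right fold of animal 3, which had the highest muscle sum (29923 CPM) and the lowest secretory sum (651 CPM) of the 6. KCNQ1 ranged from 2.53 to 15.5 CPM in injury-only libraries and from 0.115 to 1.98 CPM in control libraries, and these did not overlap.

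**Figure D4:**
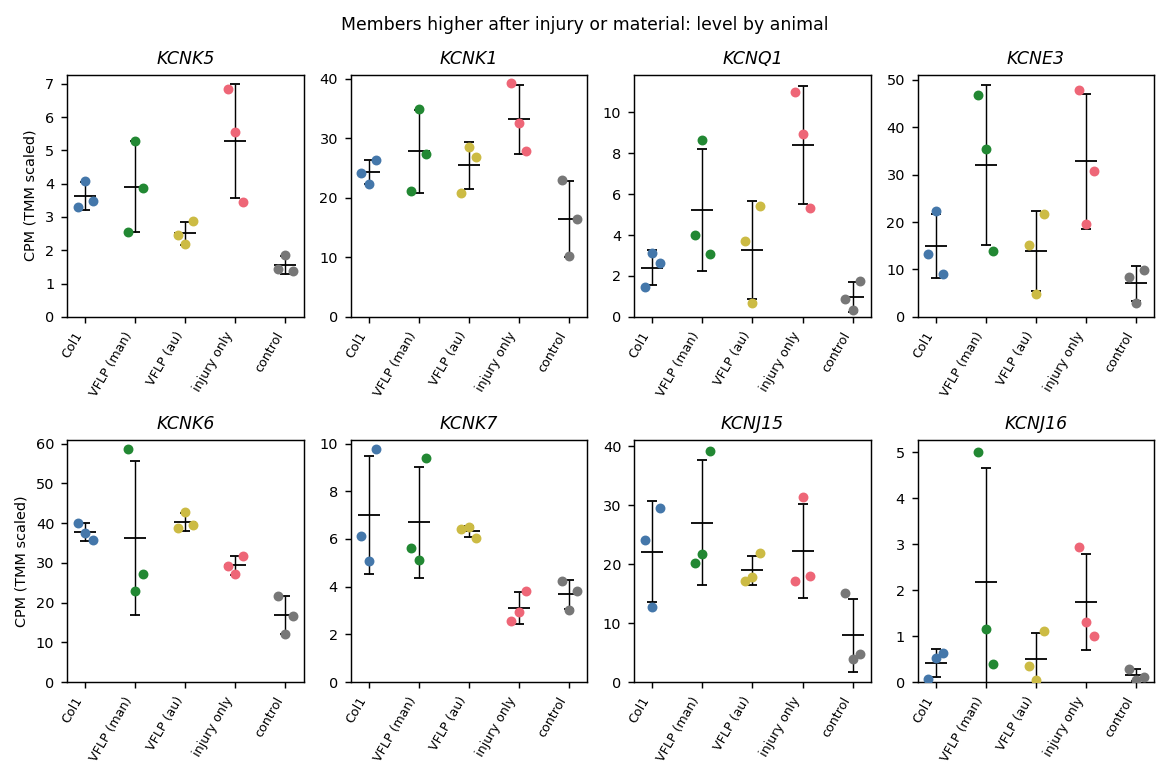
CPM of KCNK5, KCNK1, KCNQ1, KCNE3, KCNK6, KCNK7, KCNJ15 and KCNJ16 by animal, with mean and SD of 3 animals (bars are cut at 0). The first 4 passed in injury-only against control animals; KCNK7 is near control in injury-only animals and above it in all 9 injected animals.

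The VFLP (man) material was set against injury only, and 6 of 67 KCN genes fell and none rose; the share among all 17770 genes tested was 1.06%, with 0.0732% higher and 0.99% lower. Among the 6 were KCNMA1, KCNA7, KCNIP1, KCNA1 and KCNJ12, of which KCNIP1 had not passed in injury-only against control animals. KCNJ12 had 1.42, 7.00 and 3.06 CPM in VFLP (man) animals, against 15.2, 34.5 and 38.0 CPM in injury-only animals, 7.66-fold lower (log2 -2.94, SE 0.60, adjusted p = 0.0467). KCNA7 had 1.38, 4.03 and 1.20 CPM in VFLP (man) animals, against 10.6, 16.4 and 22.1 CPM in injury-only animals, 7.45-fold lower (log2 -2.90, SE 0.56, adjusted p = 0.0427). Neither gene had an overlapping animal. KCNMA1 had 3.12, 5.72 and 4.29 CPM in VFLP (man) animals and 16.3, 17.5 and 18.9 CPM in injury-only animals, 4.02-fold lower (log2 -2.01, SE 0.34, adjusted p = 0.0427). KCNA1 had 0.276, 0.336 and 0.496 CPM in VFLP (man) animals and 3.90, 14.3 and 20.1 CPM in injury-only animals, the steepest fall at 34.3-fold (log2 -5.10, SE 1.00, adjusted p = 0.0427). Every VFLP (man) animal lay several-fold under every injury-only animal for KCNA1. KCNIP1 had 0.0863, 0.137 and 0.0320 CPM in VFLP (man) animals and 0.985, 1.11 and 0.446 CPM in injury-only animals, 9.65-fold lower on 16 and 116 reads (log2 -3.27, SE 0.63, adjusted p = 0.0427). KCNIP1 overlaps KCNMB1 in the RefSeq annotation, so their reads may be hard to part.

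Next below the threshold were KCNA6, with 0.751 ± 0.250 CPM in VFLP (man) and 4.19 ± 0.98 CPM in injury-only animals (adjusted p = 0.0506), and KCNMB1, with 0.333 ± 0.212 and 2.44 ± 0.71 CPM in those groups (adjusted p = 0.0703). KCNJ2, unlike KCNJ12, did not pass, with 24.8, 18.8 and 6.91 CPM in VFLP (man) animals and 16.9, 28.3 and 26.3 CPM in injury-only animals (log2 -0.50, SE 0.47, adjusted p = 0.652). Whether the 2 genes differ in their response was not tested. KCNQ1 and KCNE3 were at 5.24 ± 2.99 and 32.1 ± 16.8 CPM in VFLP (man) animals and 8.42 ± 2.88 and 32.8 ± 14.2 CPM in injury-only animals, and neither passed. Over the 56 genes the median log2 fold change was -0.70, against 0.00 for all genes. In the same comparison 7 of 24 muscle genes fell, and so did 1 of 10 smooth muscle, 1 of 11 nerve and 1 of 12 endothelial genes, while the other marker lists gave none. No KCN gene passed with the muscle level as a covariate, and none with a batch term. In that last fit KCNJ12 had a log2 fold change of 0.019. The count was also 0 without injury-only animal 2 or 3 or without VFLP (man) animal 1 or 3. The shares of all genes that passed in these alternative fits are not given here. Batch and treatment overlap in 1 library, the right fold of injury-only animal 1. That library had 3.85 CPM of KCNJ12, 2.34 CPM of KCNA1 and 1812 CPM of muscle genes. The left fold of that animal, labelled with the other batch, had 26.4 CPM, 5.47 CPM and 16232 CPM.

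**Figure D5:**
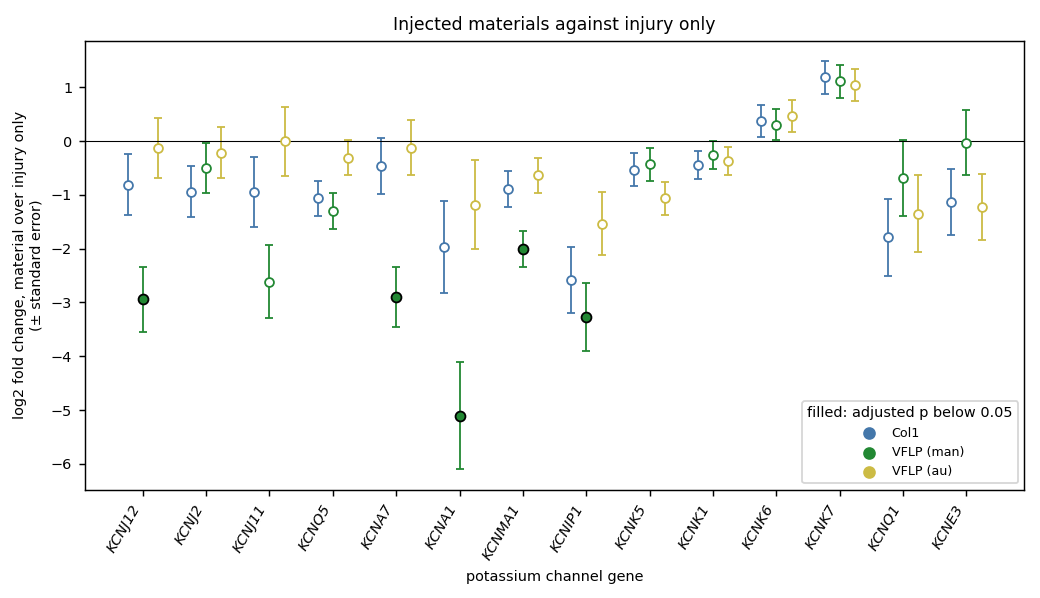
Log2 fold change of 14 potassium channel genes in each injected group over injury only, with approximate standard errors. Filled points passed an adjusted p of 0.05, which 5 of these genes did in VFLP (man) and none in Col1 or VFLP (au); KCNK7 is the gene with a value near 1 in all 3 groups.

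Against the same injury-only animals, Col1 and VFLP (au) gave no KCN gene past the threshold, and no gene of all 17770 passed in either (0%). At an unadjusted p under 0.05 there were 16 KCN genes and 2530 genes in all for Col1, and 11 KCN genes and 2289 genes in all for VFLP (au). DESeq2 called 2 KCN genes in Col1, KCNIP1 and KCNK7, and 0 in VFLP (au). The share of all genes that DESeq2 called is not given here. The median log2 fold change over the 56 genes was -0.77 for Col1 and -0.66 for VFLP (au), with all genes at 0.00 and 0.01. KCNIP1 had 0.172, 0.144 and 0.0995 CPM in Col1 animals, each below the 3 injury-only animals (log2 -2.58, SE 0.62, adjusted p = 0.267), and 0.146, 0.166 and 0.559 CPM in VFLP (au) animals. KCNMA1 had 9.42, 11.9 and 6.89 CPM in Col1 animals and 11.8, 8.08 and 13.8 CPM in VFLP (au) animals, below every injury-only animal in both, without passing (adjusted p = 0.291 and 0.416). KCNK7 was the described gene above all injury-only animals in all 3 injected groups. It had 6.12, 5.08 and 9.79 CPM in Col1 animals, 5.61, 5.11 and 9.38 CPM in VFLP (man) animals and 6.41, 6.50 and 6.05 CPM in VFLP (au) animals, against 2.56, 2.92 and 3.83 CPM in injury-only animals. Its log2 fold changes were 1.19, 1.11 and 1.04 (SE 0.30 each; adjusted p = 0.267, 0.0959 and 0.354), and the injected and injury-only groups also differ in batch. At KCNK7, 35.9% of reads lay on the opposite strand. The 3 comparisons share their injury-only animals.

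Among the 3 materials no KCN gene passed the threshold, and no gene of all 17815 did (0%). An unadjusted p under 0.05 was found for 14 KCN genes and 1630 genes in all. DESeq2 called 9 KCN genes, and its share over all genes is not given here. KCNA7 had an adjusted p of 0.179 and KCNJ12 of 0.193. KCNJ12 had 15.7, 25.5 and 8.58 CPM in Col1 animals, 1.42, 7.00 and 3.06 CPM in VFLP (man) animals and 33.4, 14.5 and 31.6 CPM in VFLP (au) animals. KCNA7 had 11.3, 18.3 and 6.05 CPM in Col1, 1.38, 4.03 and 1.20 CPM in VFLP (man) and 18.6, 9.06 and 17.1 CPM in VFLP (au) animals. For both genes the VFLP (man) animals were the lowest. Their muscle sums overlapped with those of Col1 and not with those of VFLP (au). The muscle level used in the fits was 3.29, 5.66 and 4.62 in VFLP (man) animals. It was 6.24, 6.89 and 5.65 in Col1 animals and 6.51, 6.32 and 7.61 in VFLP (au) animals. KCNN4 varied widely within groups, with 18.2, 71.0 and 5.95 CPM in Col1 animals, 4.45, 4.65 and 6.98 CPM in VFLP (man) animals and 5.73, 7.49 and 15.1 CPM in VFLP (au) animals. KCNH1 had 18.1, 18.3 and 53.1 CPM in Col1, 15.0, 10.6 and 36.5 CPM in VFLP (man) and 3.75, 21.5 and 11.7 CPM in VFLP (au) animals, and also did not pass.

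Set against control animals, 27 of 67 KCN genes passed in Col1 (4 higher, 23 lower), 35 in VFLP (man) (9 higher, 26 lower) and 24 in VFLP (au) (1 higher, 23 lower). Of all genes, 32.1% passed in Col1 (13.5% higher, 18.6% lower), 37.3% in VFLP (man) (16.7% higher, 20.5% lower) and 27.5% in VFLP (au) (10.8% higher, 16.7% lower). These comparisons share the control animals, and injected and control animals lie in different batches, so treatment and batch cannot be told apart in them. Over the 5 groups, 28 of 67 KCN genes passed, against 28.4% of all genes. KCNK6 passed upward in all 3 injected groups, with 40.0, 37.6 and 35.7 CPM in Col1, 58.6, 23.0 and 27.2 CPM in VFLP (man) and 38.7, 42.8 and 39.5 CPM in VFLP (au), at 2.24-, 2.14- and 2.40-fold over control (adjusted p = 0.0107, 0.0123 and 0.00945). All 9 injected animals stood above the highest control animal, at 21.7 CPM. KCNK5 was 2.32-fold above control in Col1 and 2.47-fold in VFLP (man) (adjusted p = 0.0108 and 0.00618), and 1.61-fold in VFLP (au), where it did not pass (adjusted p = 0.116). KCNJ15 passed in Col1 and VFLP (man), at 2.80- and 3.39-fold (adjusted p = 0.0377 and 0.0159), and had 17.2, 17.8 and 21.8 CPM in VFLP (au) (adjusted p = 0.0751). KCNQ1 and KCNE3 passed in VFLP (man), at 5.20- and 4.52-fold (adjusted p = 0.0253 and 0.0180). Their adjusted p were 0.199 and 0.201 in Col1 and 0.0988 and 0.251 in VFLP (au).

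KCNA1 and KCNJ5 had their widest falls against control in VFLP (man). KCNA1 was 26.1-fold below control in Col1, 229-fold in VFLP (man) and 15.1-fold in VFLP (au) (adjusted p = 0.00319, 0.000255 and 0.00916). KCNJ5 was 14.8-, 85.0- and 13.1-fold below control in Col1, VFLP (man) and VFLP (au) (adjusted p = 0.0185, 0.00201 and 0.0260), with 0.725, 0.580 and 0.0800 CPM in the 3 VFLP (man) animals. The folds of KCNQ5 and KCNJ2 were smaller. KCNQ5 was 8.18-, 9.63- and 4.85-fold below control in Col1, VFLP (man) and VFLP (au), and KCNJ2 was 10.3-, 7.63- and 6.24-fold below, so the fitted fold of KCNJ2 was widest in Col1. For KCNMB3 the falls were 2.53-, 2.68- and 2.30-fold in the same order, close to the 2.20-fold of injury-only animals. Once the muscle level entered these fits as a covariate, no KCN gene passed in any of them, and with a batch term the counts were 0 in Col1, 1 in VFLP (man) and 0 in VFLP (au). Without control animal 2, the VFLP (au) count was 14. The shares of all genes that passed in these alternative fits are not given here.

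Some genes had similar means in all groups. KCNAB2 averaged 9.10 ± 1.67 CPM in Col1, 8.78 ± 0.47 CPM in VFLP (man), 8.84 ± 1.13 CPM in VFLP (au), 8.50 ± 2.22 CPM in injury-only and 10.5 ± 1.3 CPM in control animals. KCNMB4 averaged between 1.73 and 2.02 CPM in the 5 groups. These genes passed in no comparison, which does not show that their levels are equal. Of the 36 genes under the level limit, 11 were tested and 2, KCNV2 and KCNA10, had no read in any library. KCNH2, a repolarizing channel of the heart, was the gene below the limit that passed in injury-only against control animals, 3.04-fold higher on 37 and 10 reads (log2 1.61, SE 0.47, adjusted p = 0.0289). KCNA4 passed downward in each injected group against control, on 10, 6 and 7 reads in Col1, VFLP (man) and VFLP (au) and 39 reads in control animals.

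Pumps, cotransporters and regulators that handle potassium outside the KCN family were read from a list of 36 genes, of which 33 were found and 26 tested. In injury-only against control animals 3 rose and 7 fell, with a median log2 fold change of 0.16. FXYD1, the small regulator of the sodium-potassium pump in muscle, averaged 22.2 ± 4.0 CPM in injury-only and 112 ± 37 CPM in control animals, 4.52-fold lower (adjusted p = 0.00232). HCN4, a hyperpolarization-activated channel, averaged 0.460 ± 0.268 and 0.0383 ± 0.0085 CPM in those groups, 12.1-fold higher (adjusted p = 0.00443). Its mean lay below 0.5 CPM in every group, so that fold rests on low counts. SLC12A7, a potassium-chloride cotransporter of epithelia, averaged 55.5 ± 21.9 and 19.9 ± 3.2 CPM, 2.91-fold higher (adjusted p = 0.00507). ATP1B1, a pump beta subunit, averaged 271 ± 24 and 516 ± 162 CPM, 1.93-fold lower (adjusted p = 0.00865). ABCC9, named outside the 4 genes of smallest p and chosen after the values were seen, is the regulatory subunit that joins KCNJ11 or KCNJ8 in ATP-sensitive channels and was 3.54-fold lower (adjusted p = 0.0406). When the muscle level was a covariate, 3 genes of the list passed in injury-only against control animals, all higher. Of them, 1 had passed without it. The share of all genes that passed in that fit is not given here.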

How the data were processed

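Gene-level read counts, raw and unnormalized, were deposited by the authors, who used STAR 2.7.10b per the submitters' processing notes on poly(A) libraries. The genome build is not given in the sources used here, nor the annotation, so no positions are printed. The column for reads whose second mate matches the gene's strand was used. The 4 entries that name no gene, which held 23.2 to 44.7% of each library, were left out. Folds of an animal were summed. Levels are TMM-scaled CPM with SD over 3 animals. Tests used R 4.3.3 with the edgeR 4.0.16 quasi-likelihood F test (filterByExpr, minimum count 10), with p adjusted by Benjamini and Hochberg over all genes tested and 0.05 as threshold. Injury only against control, and the test among materials, used 16 units with batch as covariate, 1 animal being divided by batch; all other comparisons used 15 animals without it. SE is the absolute log2 fold change over the square root of F, an approximation. Animals are separate per the labels, so p-values measure the spread between animals, except that in the fits of 16 units both folds of 1 animal count as separate units. CPM are not corrected for gene length and are not compared between genes. Values rest on counts, so genes with few reads carry more counting error.

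Alternatives were DESeq2 1.42.0, its size factors, no filter, unstranded counts, a replicate block, the muscle level as covariate, the other batch handling, and each animal left out; leaving out the batch D injury-only library was added after seeing the data. Genes given with values by animal were those past the threshold in injury only against control or in a material against injury only, and the member of highest mean in each class. Values by animal of other genes (KCNK7, KCNJ15, KCNN4, KCNRG and KCNH1) were chosen after they were seen. The members and lists were chosen with earlier results of these data known. RefSeq names (mOryCun1.1) served for names and neighbours; all 92 symbols were found. The tests were also run on simulated counts with a fixed spread. These held no batch or muscle difference, so the run does not check the tests against those features of the data. Some genes, counted among those tested, are not reported here by name.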

Additional observations from a re-analysis of the deposited data

Results flagged for a closer look

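Reads on the strand opposite KCNN4, outside the counts used for the comparisons, averaged 0.805 ± 0.431 CPM in injury-only animals (SD, n = 3; 0.472 to 1.29 CPM) and 0.175 CPM in control animals (0.0446 to 0.396 CPM), so that all 3 injury-only animals lay above control. Each injured group was compared with control in this way for 54 described genes, at a mean of at least 0.5 CPM. Reads of KCNN4 on its own strand averaged 27.1 ± 23.1 CPM in injury-only and 6.56 ± 4.37 CPM in control animals. Over all libraries, 3.35% of the reads at the gene lay on the opposite strand. Whether the opposite-strand reads change apart from those of KCNN4 itself was not tested.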

How the results depend on the processing

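Direction and side of the threshold were compared over all alternatives for the counts and for 19 named genes. Of 18 genes in injury only against control, DESeq2 gave 29, the muscle covariate 3 and the fits leaving out an animal 10 to 23. For VFLP (man) against injury only, where 6 passed, DESeq2 gave 16, the muscle covariate 0, a batch term 0, the fits leaving out an animal 0 to 6, and leaving out the batch D injury-only library 9. DESeq2 gave 2 for Col1 against injury only and 9 among materials, where none had passed. None of these DESeq2 counts is set beside the share of all genes that DESeq2 called. Against control, the counts of 27 (Col1), 35 (VFLP (man)) and 24 (VFLP (au)) were 0, 0 and 0 with the muscle covariate and 0, 1 and 0 with a batch term, and leaving out an animal gave 14 to 28 for VFLP (au). The 28 genes over 5 groups became 0 and 10 in those fits. Among named genes past the threshold 1 fold change reversed, KCNJ12 in VFLP (man) against injury only, at 0.019 with a batch term, while some not past it also changed sign there, such as KCNJ11 (0.24) and KCNQ5 (0.16) with the muscle covariate; 45 values in injury only against control and 40 in VFLP (man) against injury only lost the threshold. The cause was not tested. Animal numbers do not pair the groups (r of same-number deviations -0.50 to 0.36, median -0.02, 30 pairs); with the number as replicate block the counts were 17 for injury only against control and 5 for VFLP (man) against injury only. Genes under about 100 reads, such as KCNG2 and KCNJ3, are limited by depth.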
